A study of Mus musculus with 4 samples.

Results

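Fatty acid oxidation enzymes were followed across 4 heart samples as a list of 38 genes for the carnitine shuttle, the beta-oxidation spiral, electron transfer, thioesterases and acyl-CoA synthetases. A gene counted as measured when a probe set of the array carried its symbol, which held for 35 of the 38 (among 19505 genes in all). Etfb, Ucp2 and Acsl3 had no matched probe set. By the usual location of the protein, 24 listed genes were placed in mitochondria (22 measured) and 5 in peroxisomes (all measured). The other 9 listed genes (8 measured) act elsewhere or at several sites.

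The hearts came from outbred ICR (Jcl:ICR) mice that were injected at postnatal day 1 with PBS or with a viral vector preparation for Tbx6, a T-box transcription factor of early mesoderm, and sampled 7 or 30 days later. One label field places the injection beneath the back skin and others speak of the neonatal heart. A single Clariom S array was deposited for each of PBS at day 7, Tbx6 at day 7, PBS at day 30 and Tbx6 at day 30. The control was saline rather than a vector without Tbx6, so the vector and the gene cannot be told apart. Not given in the sources used here are the vector's promoter, how many hearts made up an RNA sample, and their sex.

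Fatty acids are the main fuel of the adult heart, while the heart around birth relies more on glucose and lactate. Long-chain acyl groups enter mitochondria as carnitine esters, pass through repeated rounds of dehydrogenation, hydration, a further dehydrogenation and thiolysis, and hand their electrons to the respiratory chain in part through the electron transfer flavoprotein. Peroxisomes shorten very long and branched chains by a parallel set of enzymes.

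All 8 cardiomyocyte markers were above background on every array. The PBS array of day 7 stood apart: 4 of 7 measured lung epithelium markers were above background there. The number was 0 for Tbx6 at day 7, 0 for PBS at day 30 and 1 for Tbx6 at day 30. Those 4 were the airway genes Scgb1a1, Scgb3a1, Scgb3a2 and Cyp2f2. The surfactant genes Sftpc, Sftpb and Sftpa1 were at background on all arrays. Values are deposited log2 expression values. A reading is called at background when it did not exceed the highest of the array's 23 background probe sets, which lay between 5.77 and 6.05. The table's highest value was 19.9 and the highest reading of a listed gene was 18.1, so 0 listed genes came within 1 log2 unit of that ceiling. Probe sets differ in brightness, so levels are compared within a gene and not between genes.

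Upstream sequence is shown for the genes on which the results turn, from RefSeq windows on build GRCm38.p6 that reach from 250 bases before to 50 after a gene's start. Such windows were found for 31 of the 38 genes. Hadha and Hadhb, which encode the alpha and beta subunits of the mitochondrial trifunctional protein, start head to head. Their starts enclose the 272 bases of chr5:30154981-30155252 (plus strand, between the genes). The stretch is given because both genes leave from it, while the change with age passed the test for Hadhb and not for Hadha. Capitals mark the GC box GGGCGG, searched on both strands.
Hadha and Hadhb: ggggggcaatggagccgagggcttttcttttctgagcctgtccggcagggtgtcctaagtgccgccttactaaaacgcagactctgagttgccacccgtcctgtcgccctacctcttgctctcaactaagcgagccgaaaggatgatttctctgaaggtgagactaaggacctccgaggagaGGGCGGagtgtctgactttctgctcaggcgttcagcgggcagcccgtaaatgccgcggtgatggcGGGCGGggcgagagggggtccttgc
The stretch held 2 such boxes. In the whole windows GGGCGG was found for 23 of 31 listed genes, against 35.7% of all 32851 windows. All windows outnumber the 19505 measured genes, the share among windows of measured genes alone was not counted, and the difference was not tested.

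The hexamer AGGTCA is the core element bound by nuclear receptors such as the PPARs and the oestrogen-related receptors, which are known regulators of fatty acid oxidation genes. It was searched on both strands and was found in 6 of 31 windows, a share near the 16.3% of all windows. The 6 genes were Cpt1a and Ucp3, which fell with age, Acadm, Acadvl and Echs1, which rose, and Cpt1c, which was at background. The part of the hexamer in these changes was not tested. The last 160 bases before the start of 4 of these genes follow, with the hexamer or its reverse complement in capitals, to set the genes that fell beside genes that rose. They lie at chr19:3323141-3323300 (plus strand, Cpt1a), chr7:100472831-100472990 (plus strand, Ucp3), chr7:140116422-140116581 (minus strand, Echs1) and chr11:70015429-70015588 (minus strand, Acadvl).
Cpt1a: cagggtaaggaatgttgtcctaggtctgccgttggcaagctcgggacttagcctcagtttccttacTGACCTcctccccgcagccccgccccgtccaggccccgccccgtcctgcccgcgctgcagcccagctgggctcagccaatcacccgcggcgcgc
Ucp3: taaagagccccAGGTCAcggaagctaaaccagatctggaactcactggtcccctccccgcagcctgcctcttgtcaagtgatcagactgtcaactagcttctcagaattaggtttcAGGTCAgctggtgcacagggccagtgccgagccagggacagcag
Echs1: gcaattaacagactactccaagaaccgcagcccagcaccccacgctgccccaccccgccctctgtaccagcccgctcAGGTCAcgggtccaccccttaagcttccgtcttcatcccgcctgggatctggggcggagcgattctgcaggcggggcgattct
Acadvl: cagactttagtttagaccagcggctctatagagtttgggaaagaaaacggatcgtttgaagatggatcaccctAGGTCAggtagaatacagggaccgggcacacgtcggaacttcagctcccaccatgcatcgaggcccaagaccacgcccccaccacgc
The Ucp3 stretch held 2 matches and the others 1 each. The longer AAGGTCA, which contains the hexamer, was found for Acadm alone among the listed genes (4.72% of all windows). TNAAGGTCA, which contains both (1.28% of all windows), and the direct repeat of the hexamer with 1 base between the copies (0.0396% of all windows) were found in 0 of 31. A match is a run of letters and not a site shown to be bound.

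Between day 7 and day 30, 13 of the 38 listed genes rose and 2 fell, where 34 were tested. The risers included the inner-membrane carnitine transferase Cpt2, 5 acyl-CoA dehydrogenases, the hydratase Echs1 and the electron transfer dehydrogenase Etfdh. The fallers were the liver-type carnitine transferase Cpt1a and the uncoupling protein Ucp3. Of all 9753 genes tested, 14.2% rose and 12.1% fell, or 26.3% in either direction. Calls are those of limma's additive model (day plus injection) with a Benjamini-Hochberg adjusted p under 0.05, so each day is read from its PBS and Tbx6 arrays together. With 1 residual degree of freedom the standard errors (SE) are borrowed largely from other genes, and the p-values measure only the spread between these arrays.

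The median change over the 35 measured genes was 0.45 on the log2 scale, against -0.029 over all genes. It was 0.47 between the PBS arrays and 0.28 between the Tbx6 arrays, which leave out the PBS array of day 7. Bright genes as a class also lay higher at day 30, with a median difference of 0.20 over the 486 genes whose mean was at least 14. Quantile normalisation brought that median to -0.0035 and the list's median to 0.25, and it left 9 listed genes that rose and 2 that fell, where 12.3% and 11.4% of all tested genes did.

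By size alone, 13 listed genes were at least 1.5-fold higher and 2 at least 1.5-fold lower at day 30 in both the PBS pair and the Tbx6 pair, and these were the 15 genes called by limma. Of all tested genes, 14.7% were higher and 12.9% lower by that size in both pairs. In the Tbx6 pair alone, 16 listed genes were at least 1.5-fold higher and 3 lower, where the shares of all tested genes were 22.9% and 21.2%.

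**Figure D1:**
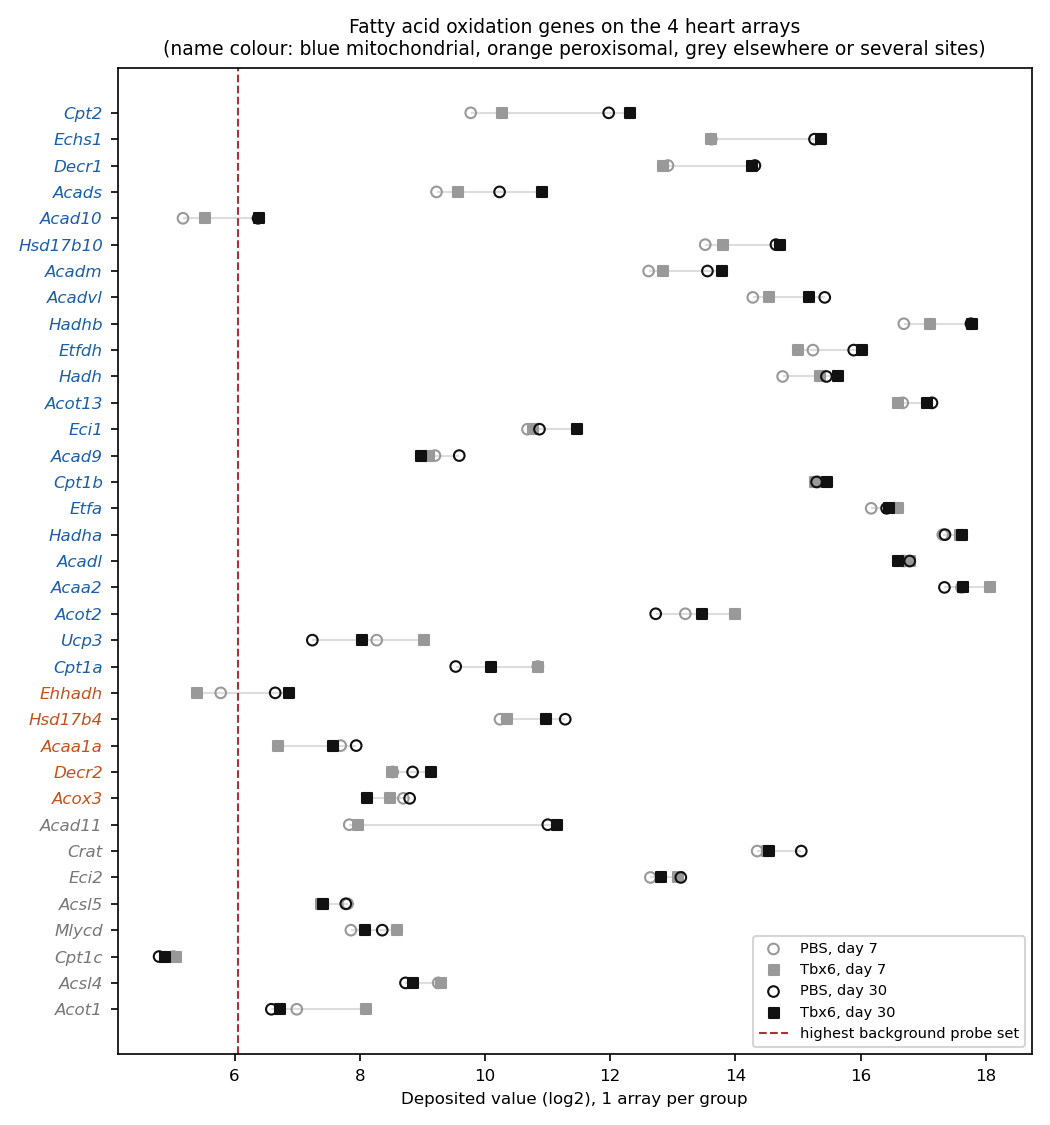
Deposited log2 values (horizontal axis) of the 35 measured genes on each of the 4 arrays, with open circles for PBS, squares for Tbx6, grey for day 7 and black for day 30; the dashed line is the highest background probe set of any array (6.05). Acad11 moved from 7.83 and 7.97 at day 7 to 11.00 and 11.15 at day 30, while the readings of Cpt1b stayed between 15.28 and 15.46.

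The carnitine shuttle did not move as a block. Cpt1a and Cpt1b encode the liver and muscle forms of the outer-membrane transferase that commits long-chain acyl groups to import. At day 7 the reading of Cpt1a was 10.85 with PBS and 10.84 with Tbx6, and at day 30 it was 9.53 and 10.10. Both readings of day 30 were below both of day 7, and the gene fell by 1.03 on the log2 scale (SE 0.26, adjusted p = 0.0214 by limma). Cpt1b read 15.33 and 15.28 at day 7 and 15.30 and 15.46 at day 30 (PBS before Tbx6, here and below). Its readings overlapped between days, with a change of 0.08 and a 95% interval of -0.48 to 0.64.

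Cpt2, the transferase of the inner membrane that releases acyl-CoA into the matrix, read 9.77 and 10.27 at day 7 and 11.98 and 12.31 at day 30. It rose 4.35-fold, by 2.12 on the log2 scale (SE 0.24, adjusted p = 0.000588 by limma), and by at least 2.04 in either pair. Cpt1c, the form of the endoplasmic reticulum known mainly from neurons, was at background on all 4 arrays (4.79 to 5.07) and was not tested. Crat, the acetyltransferase that buffers short acyl groups, read 14.35, 14.51, 15.05 and 14.53 on the arrays of PBS and Tbx6 at day 7 and PBS and Tbx6 at day 30. Only its PBS reading of day 30 stood clear of the others, and the change of 0.36 did not pass the test. Mlycd, malonyl-CoA decarboxylase, which removes the inhibitor of the outer-membrane step, read 7.86 and 8.60 at day 7 and 8.36 and 8.09 at day 30, with no order by day.

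The acyl-CoA dehydrogenases, which open each round, gave 5 of the 13 risers: Acads, Acadm, Acadvl, Acad10 and Acad11. Acad11, a dehydrogenase of longer chains that has been placed in peroxisomes as well as mitochondria, had the highest change of the list. It read 7.83 and 7.97 at day 7 and 11.00 and 11.15 at day 30. It rose 9.04-fold, by 3.18 on the log2 scale (SE 0.24, adjusted p = 0.000104 by limma), and the PBS pair (3.17) and the Tbx6 pair (3.18) gave nearly the same difference.

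Acads, for short chains, read 9.23 and 9.57 at day 7 and 10.23 and 10.91 at day 30, and rose by 1.17 (adjusted p = 0.0104 by limma). Acadm, for medium chains, read 12.61 and 12.84 at day 7 and 13.55 and 13.78 at day 30, and rose by 0.94 (adjusted p = 0.0225 by limma). Acadvl, for very long chains, read 14.28 and 14.54 at day 7 and 15.43 and 15.18 at day 30, and rose by 0.90 (adjusted p = 0.034 by limma). The days did not overlap for any of these genes. For Acadvl the call was lost after quantile normalisation (change 0.67, adjusted p = 0.0979 by limma).

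Acadl, the long-chain enzyme, read 16.70 and 16.79 at day 7 and 16.79 and 16.59 at day 30, and its readings overlapped (95% interval of the change -0.61 to 0.51). Acad9, which also serves the assembly of respiratory complex I, read 9.20 and 9.11 at day 7 and 9.59 and 8.97 at day 30, again with overlap. Acad10 did not exceed background at day 7 (5.18 and 5.52) and read 6.38 and 6.39 at day 30. Its rise was at least 0.60 when the day 7 readings were raised to background, a setting under which the call was lost (adjusted p = 0.0649 by limma).

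**Figure D2:**
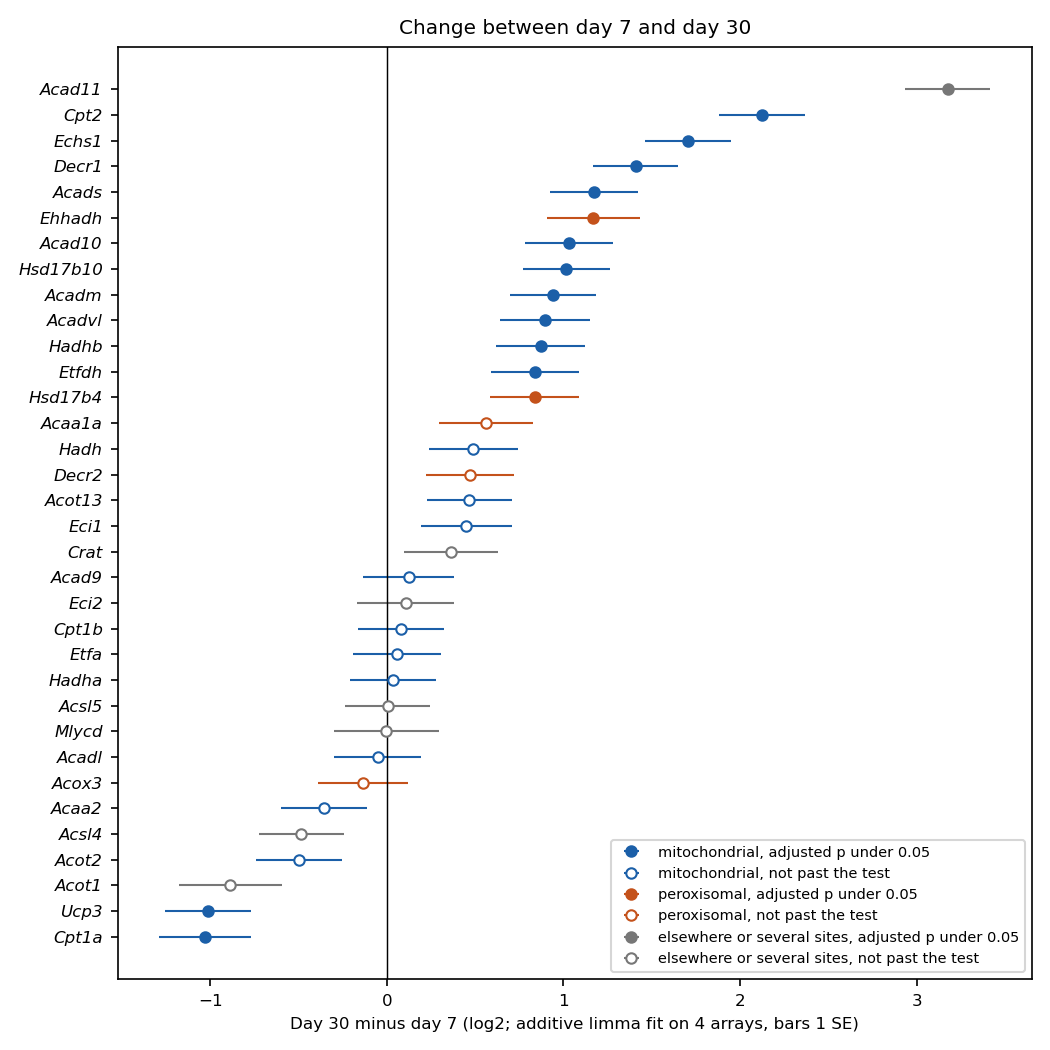
Day 30 minus day 7 on the log2 scale for the 34 tested genes, from limma's additive fit on 4 arrays, with bars of 1 SE; filled points had an adjusted p under 0.05. The 13 filled points on the right run from Hsd17b4 (0.84) to Acad11 (3.18), and Ucp3 (-1.01) and Cpt1a (-1.03) are filled on the left.

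After the first dehydrogenation come hydration, a further dehydrogenation and thiolysis. Echs1, the hydratase of short chains, read 13.62 and 13.61 at day 7 and 15.27 and 15.37 at day 30. The arrays of a day lay within 0.11 of each other, and Echs1 rose 3.27-fold, by 1.71 on the log2 scale (SE 0.24, adjusted p = 0.00161 by limma). Hsd17b10, a hydroxyacyl-CoA dehydrogenase that also acts in isoleucine breakdown and in mitochondrial tRNA processing, read 13.52 and 13.80 at day 7 and 14.65 and 14.71 at day 30. It rose by 1.02 (adjusted p = 0.0174 by limma). Hadh, the dehydrogenase of medium and short chains, read 14.76 and 15.36 at day 7 and 15.46 and 15.64 at day 30. The days did not overlap, but the change of 0.49 did not pass the test (adjusted p = 0.186 by limma).

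The trifunctional protein carries the long-chain hydratase and dehydrogenase on its alpha subunit and the thiolase on its beta subunit. Hadha read 17.31 and 17.58 at day 7 and 17.35 and 17.62 at day 30, so that days overlapped and the change was 0.04 (95% interval -0.52 to 0.59). Hadhb, which starts from the other end of the stretch printed above, read 16.69 and 17.11 at day 7 and 17.76 and 17.78 at day 30. Its rise of 0.87 (adjusted p = 0.0344 by limma) was lost after quantile normalisation (change 0.70, adjusted p = 0.0787 by limma). The difference between the changes of the subunits was not tested. Acaa2, the thiolase of the matrix, read 17.61 and 18.08 at day 7 and 17.34 and 17.64 at day 30, with overlap and a change of -0.35 that did not pass the test.

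Unsaturated fatty acids need auxiliary enzymes. Decr1, the dienoyl-CoA reductase of mitochondria, read 12.92 and 12.84 at day 7 and 14.31 and 14.27 at day 30. It rose 2.65-fold, by 1.41 on the log2 scale (SE 0.24, adjusted p = 0.00419 by limma). The isomerase genes did not pass the test. Eci1 read 10.68 and 10.76 at day 7 and 10.87 and 11.47 at day 30, a change of 0.45 without overlap. Eci2 read 12.64 and 13.08 at day 7 and 13.13 and 12.81 at day 30, with overlap.

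Electron transfer was represented by Etfa, a subunit of the flavoprotein, and Etfdh, the oxidoreductase that passes its electrons to ubiquinone. Etfdh read 15.24 and 14.99 at day 7 and 15.89 and 16.02 at day 30 and rose by 0.84 (adjusted p = 0.0394 by limma). That call was lost after quantile normalisation (change 0.59, adjusted p = 0.128 by limma). Etfa read 16.17 and 16.59 at day 7 and 16.42 and 16.46 at day 30, with overlap and a change of 0.06.

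Of the 5 peroxisomal genes, 2 rose, 0 fell and 3 did not pass the test. Their median change was 0.56, beside 0.48 over the 22 measured mitochondrial genes, of which 10 rose and 2 fell. Of all tested genes 14.2% rose and 12.1% fell, and 5 peroxisomal genes are too few to be read against these shares. Leaving out either array of the Tbx6 pair brought the peroxisomal median to 0.32. Ehhadh, the bifunctional enzyme induced by PPAR-alpha, did not exceed background at day 7 either (5.78 and 5.40) and read 6.65 and 6.87 at day 30. It rose by at least 0.98 (adjusted p = 0.0133 by limma on the deposited values).

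Hsd17b4, the other peroxisomal bifunctional enzyme, read 10.24 and 10.35 at day 7 and 11.28 and 10.98 at day 30. Its rise of 0.84 (adjusted p = 0.0403 by limma) was lost after quantile normalisation (change 0.80, adjusted p = 0.0571 by limma). Decr2, the peroxisomal reductase, read 8.53 and 8.52 at day 7 and 8.84 and 9.15 at day 30, a change of 0.47 that did not pass the test. Acaa1a, a peroxisomal thiolase, read 7.70 and 6.70 at day 7 and 7.94 and 7.57 at day 30. Acox3, an oxidase of branched chains, read 8.70 and 8.49 at day 7 and 8.80 and 8.12 at day 30. The days overlapped for both Acaa1a and Acox3.

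Thioesterases and uncoupling proteins, which act when acyl-CoA is plentiful, gave 0 risers. Ucp3, the uncoupling protein of muscle mitochondria, read 8.27 and 9.03 at day 7 and 7.24 and 8.04 at day 30. It fell by 1.01 on the log2 scale (SE 0.24, adjusted p = 0.0169 by limma), by 1.03 in the PBS pair and by 0.99 in the Tbx6 pair. Acot2, the matrix thioesterase of long chains, read 13.20 and 13.99 at day 7 and 12.73 and 13.47 at day 30, a change of -0.50 that did not pass the test (adjusted p = 0.165 by limma). Acot1, its cytosolic neighbour, read 6.99 and 8.10 at day 7 and 6.59 and 6.73 at day 30, a change of -0.89 (adjusted p = 0.0558 by limma). Acot1 and Acot2 are closely similar paralogs, and whether their probe sets tell them apart was not tested. Acot13, a further thioesterase of mitochondria, read 16.67 and 16.60 at day 7 and 17.14 and 17.07 at day 30, and its change of 0.47 did not pass the test.

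Among the acyl-CoA synthetases, which activate fatty acids before any of these steps, Acsl4 read 9.25 and 9.30 at day 7 and 8.73 and 8.86 at day 30. Both later readings were lower, but the change of -0.48 did not pass the test. Acsl5 read 7.81 and 7.37 at day 7 and 7.78 and 7.41 at day 30, with overlap between days and the PBS array above the Tbx6 array on both.

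Other genes of the pathway, taken as whole lists, were counted by the same test. Of 21 measured carnitine and mitochondrial acyl-CoA genes outside the list (19 tested), 8 rose and 1 fell, with a median of 0.50. The list also holds genes that act outside mitochondria. Its risers include Nudt7 (1.63) and Nudt19 (1.07), which act in peroxisomes and are not in the peroxisomal counts below. The highest changes were in Ivd (3.04), isovaleryl-CoA dehydrogenase of leucine breakdown, Acad12 (2.40), Acadsb (1.84), for branched short chains, and Echdc1 (1.64), of the cytosol. Slc22a5, the carnitine importer of the plasma membrane, rose by 0.82, and Slc25a20, the carnitine-acylcarnitine carrier, differed by 0.55 without passing the test. Dbi, the acyl-CoA binding protein, fell by 0.85. Fabp3, the fatty acid binding protein of heart, stood at the ceiling on all arrays and measures no change.

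Of 19 measured peroxisomal fatty acid genes outside the list (10 tested), 6 rose, 0 fell and 10 were at background on all arrays. The risers were Scp2 (2.85), a thiolase and sterol carrier, Phyh (2.06), of phytanic acid breakdown, Abcd2 (1.83), an importer of very long chains, Amacr (1.17), a racemase, Cat (1.11), catalase, and Crot (0.91), the octanoyltransferase. Of 13 measured peroxins, which build the organelle, 2 rose (Pex16 by 0.89 and Pex7 by 0.81), 0 fell, and 4 were at background throughout. Only 9 of the peroxins were tested, and 2 of 9 is too few to be read against the 14.2% of all tested genes that rose. The enzymes of the tricarboxylic acid cycle, which receive the acetyl-CoA, had 10 of 17 measured genes that rose and 0 that fell, with a median of 0.84. The differences between these lists were not tested.

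**Figure D3:**
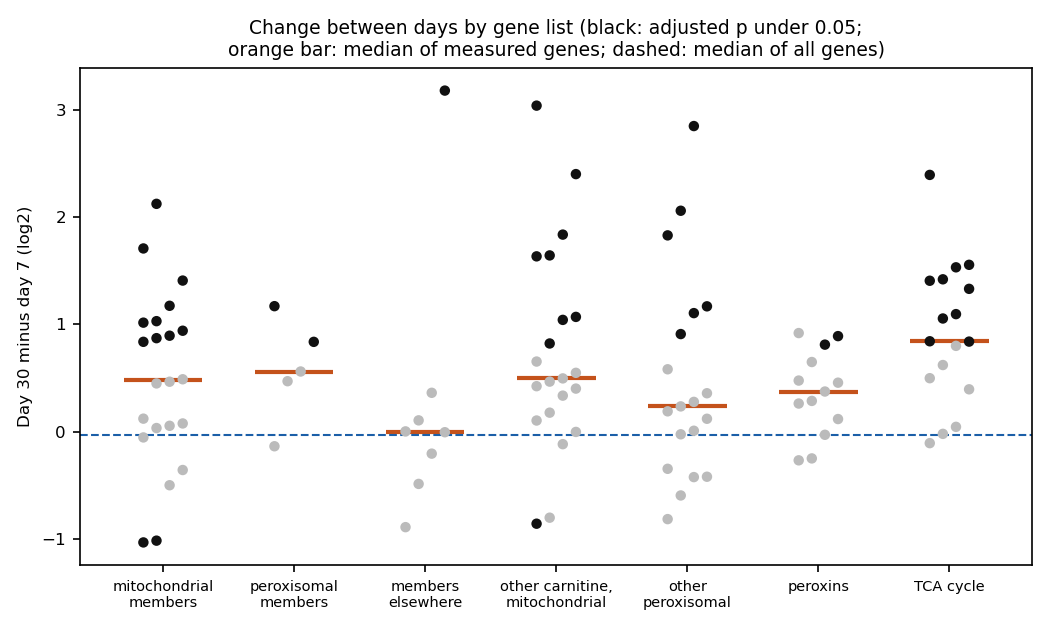
Day 30 minus day 7 on the log2 scale (vertical axis) for each measured gene of 7 lists, with black points for genes with an adjusted p under 0.05 by limma and orange bars for list medians; the dashed line is the median of all genes (-0.029). The medians were 0.48 for mitochondrial and 0.56 for peroxisomal genes of the list, 0.38 for peroxins and 0.84 for the tricarboxylic acid cycle.

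Markers of other cells also differed between days. Endothelial markers were lower at day 30, with a median change of -0.69 over 5 genes, of which 2 fell. Their log2 summed level was 16.68 and 16.57 at day 7 and 15.67 and 15.78 at day 30. Macrophage markers were higher, with a median of 1.82 over 6 measured genes, of which 5 rose, and summed levels of 11.51 and 11.42 at day 7 and 13.34 and 13.69 at day 30. Of the other lists, 1 of 2 measured erythroid markers fell: Alas2, of haem synthesis, read 12.52 and 10.73 at day 7 and 9.24 and 9.82 at day 30 (change -2.09, adjusted p = 0.0136 by limma). Of 8 skeletal muscle markers, Acta1, the skeletal actin that heart also expresses, rose by 3.42 (adjusted p = 0.000306 by limma) and 6 were at background throughout. In the brown adipocyte list 3 of 8 rose (Cox7a1, Ppara and Pank1) and in the adipocyte list 1 of 7 (Retn). The brown adipocyte list did not rise as a whole, with 5 genes tested and a median of -0.083. Its Ucp1 (-2.74) and Cidea (-0.53) were lower without passing the test. For Ucp1 the change was -6.23 in the PBS pair and 0.74 in the Tbx6 pair. Among cardiomyocyte, lung epithelium and liver markers 0 rose or fell, but only 3 lung and 1 liver markers were tested. Of the cardiomyocyte markers, Myh6, Tnnt2, Myl2, Actc1 and Pln stood near the ceiling on every array (19.70 to 19.93). Such readings could show little change. The part in the changes above was not tested, and in whole hearts fewer cells of a type and less RNA per cell cannot be told apart.

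The comparison of Tbx6 with PBS asked whether the vector changed these enzymes at either day. No gene of the list passed the test for injection: limma called 0 of 34 tested, and 0% of all 9753 genes, while 3 of the 34 had an unadjusted p under 0.05 (4.32% of all genes). What follows gives sizes of differences between single arrays, without a replicate check. Each value of day 7 is set against the PBS array with the lung epithelium markers, whose part in it was not tested. The median over the 35 measured genes was 0.14 at day 7 and 0.11 at day 30, against -0.00061 and 0.0097 over all genes. At day 7, 5 listed genes were at least 1.5-fold higher after Tbx6 and 1 was lower, where the shares of all tested genes were 7.23% and 8.41%. At day 30, 4 were higher and 2 lower, against 7.13% and 6.06%.

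The medians of the mitochondrial and peroxisomal genes differed in sign, while single genes of both groups lay on either side of 0. The median over mitochondrial genes was 0.27 at day 7 and 0.15 at day 30. Over the 5 peroxisomal genes it was -0.21 and -0.30, although at day 7 it came to -0.026 once readings at background were raised to it. Of the 22 measured mitochondrial genes, 15 were above 0 at day 7 and 17 at day 30. Of the 5 peroxisomal genes, 1 (Hsd17b4, 0.11) and 2 (Decr2, 0.30, and Ehhadh, 0.22) were. Of all 9753 tested genes, 4649 were above 0 at day 7 and 4968 at day 30. Of the mitochondrial genes, 13 were above 0 on both days and 3 below 0 on both, where 24% and 25.2% of all tested genes were. Of the 5 peroxisomal genes, 0 were above 0 on both days and 2 below. The days share no array, and the difference between compartments was not tested.

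**Figure D4:**
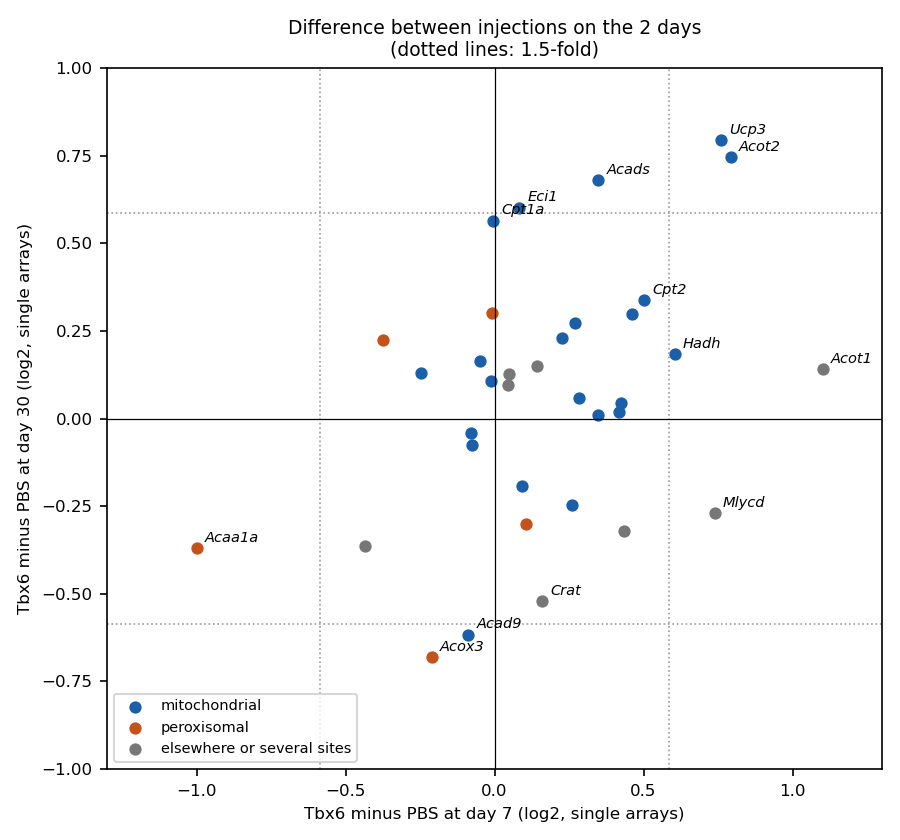
Tbx6 minus PBS on the log2 scale at day 7 (horizontal axis) and day 30 (vertical axis) for the 35 measured genes, each value from 2 single arrays; dotted lines mark 1.5-fold. Ucp3 and Acot2 lie beyond 1.5-fold on both days, and the peroxisomal Acaa1a (-0.999 at day 7) and Acox3 (-0.68 at day 30) lie on the opposite side.

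Ucp3 and Acot2 were the 2 genes at least 1.5-fold higher after Tbx6 on both days, where 0.748% of all tested genes were. Ucp3 differed by 0.76 at day 7 and 0.79 at day 30, with the readings given above. The mean difference was 0.78 (95% interval 0.22 to 1.33, unadjusted p = 0.0115 and adjusted p = 1 by limma). Its Tbx6 reading of day 30 (8.04) lay below its PBS reading of day 7 (8.27).

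Acot2 differed by 0.79 at day 7 and 0.75 at day 30, and both Tbx6 readings lay above both PBS readings. Its mean difference was 0.77 (95% interval 0.22 to 1.32, unadjusted p = 0.012 and adjusted p = 1 by limma). Acot1 differed by 1.10 at day 7 and by 0.14 at day 30, so its larger difference rests on the arrays of day 7.

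Other large differences were seen on 1 day only. Mlycd was higher after Tbx6 by 0.74 at day 7 and lower by 0.27 at day 30 (difference -0.27). Hadh differed by 0.60 and 0.18, Acads by 0.35 and 0.68, and Eci1 by 0.08 and 0.60, at day 7 and day 30. Cpt1a differed by 0.56 at day 30, while its readings of day 7 were within 0.01 of each other. Cpt2 differed by 0.50 and 0.34 and Acaa2 by 0.46 and 0.30, below 1.5-fold on both days. Hadha differed by 0.27 on both days and Acadm by 0.23 on both.

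On the other side, Acaa1a differed by -0.999 at day 7 and -0.37 at day 30, with a mean of -0.68 (95% interval -1.29 to -0.08, unadjusted p = 0.031 and adjusted p = 1 by limma). Acox3 differed by -0.21 and -0.68, Acad9 by -0.09 and -0.62, and Acsl5 by -0.43 and -0.36. For these 4 genes both Tbx6 readings lay below both PBS readings, and for 4 others (Hadha, Etfa, Acaa2 and Acot2) both lay above. The share of all genes ordered in either way was not counted, so these counts cannot be read as a result about the listed genes. Crat differed by 0.16 and -0.52, with opposite signs on the 2 days. The remaining listed genes differed by 0.44 or less on either day.

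Fat tissue expresses many of these enzymes, and its markers also differed between injections. The adipocyte markers had a median difference of -0.96 at day 7 and 1.19 at day 30 over 7 measured genes. Plin1 and Lep were at background on all arrays, and the median of day 30 is the difference of Lep. It is thus not a measured shift of the whole list. Of these, 0 at day 7 and 7 at day 30 were higher after Tbx6, and 4, 4, 4 and 5 were above background on PBS and Tbx6 of day 7 and PBS and Tbx6 of day 30. Their log2 summed level, which Fabp4 dominates, was 17.14 and 17.07 at day 7 and 16.51 and 16.82 at day 30. The brown adipocyte markers did not share one order, with 3 of 8 higher after Tbx6 at day 7 and 7 at day 30. Of the 8, 6, 5, 4 and 5 were above background in the same order of arrays, with Elovl3 and Zic1 at background throughout. Their log2 summed level, which Cox7a1 dominates, was 14.31 and 14.52 at day 7 and 17.24 and 17.40 at day 30.

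Ucp1, which defines brown fat, read 11.92 and 7.60 at day 7. At day 30 it was at background after PBS (5.69) and read 8.34 after Tbx6. Cidea, a lipid droplet protein of brown fat, was higher after Tbx6 by 0.53 at day 7 and 0.62 at day 30 (unadjusted p = 0.0433 and adjusted p = 1 by limma). Cox7a1, a cytochrome oxidase subunit that heart also expresses, was higher by 0.54 and 0.16. Ppara differed by -0.22 and -0.03 and Pank1 by -0.44 and 0.35. Dio2 differed by -1.14 at day 7 and was above background only on the PBS array of that day. The part of fat tissue in the differences of either day was not tested.

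**Figure D5:**
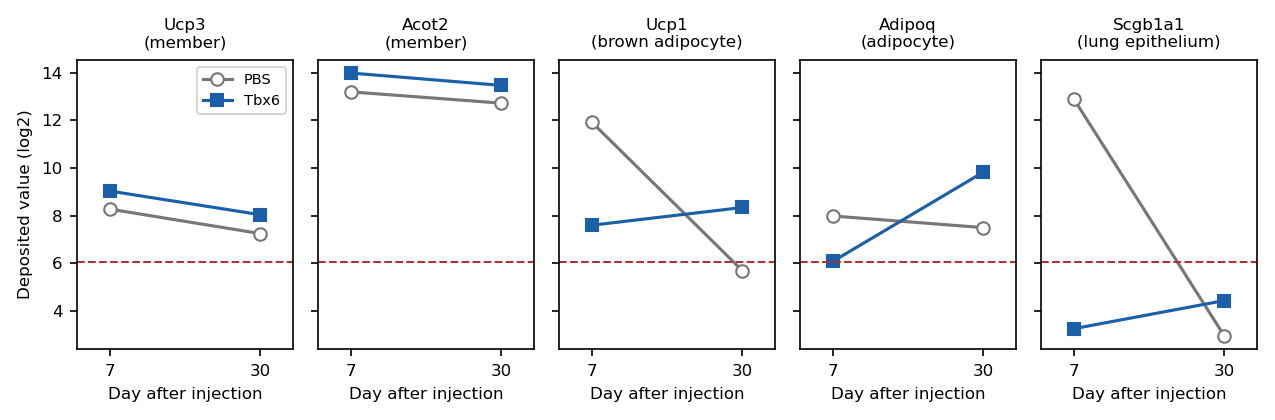
Deposited log2 values at day 7 and day 30 after PBS (open circles) and Tbx6 (squares) for Ucp3, Acot2, Ucp1, Adipoq and Scgb1a1, with 1 array per point; the dashed line is the highest background probe set of any array (6.05). Tbx6 lies above PBS on both days for Ucp3 and Acot2, while the lines cross for Ucp1 and Adipoq; Scgb1a1 is above background only for PBS at day 7 (12.89).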

How the data were processed

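Per the labels' protocols, total heart RNA was made into biotinylated single-stranded cDNA and hybridised to mouse Clariom S arrays of 1 colour. The authors normalised the arrays by SST-RMA, per the labels of the series, in Affymetrix Expression Console 1.4, per the submitters' processing notes. The deposited values are taken as log2 expression; the base was read from their range. Precision is limited by the number of arrays (4), as arrays give no depth.

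Of 28846 probe sets, 19572 carried 1 symbol in the platform annotation and 0 several; all 19572 matched RefSeq (GRCm38.p6) by Entrez identifier. The brightest probe set was kept for 55 genes with several, which left 19505 genes. The 9753 genes with a mean at or above the median (5.297) were fitted in limma 3.58.1 (R 4.3.3; lmFit, eBayes, two-sided, Benjamini-Hochberg, threshold 0.05) with additive terms for injection and day, which left 1 residual degree of freedom. Size rules were 1.5-fold. The fit was tested on simulated data. Alternatives were 2 normalisations, 2 filters, 2 variance priors, a floor at background, averaged probe sets, a 2-fold rule and leaving out arrays. Lists, figures and sequences used Python 3.11.15, pandas 2.3.3, numpy 2.4.6 and matplotlib 3.10.9. The listed genes, the other lists and the tests were chosen with earlier results of these data known. All 38 listed genes are named by rule, and of other lists up to 4 with the highest and 4 with the lowest change. Slc22a5, Slc25a20 and Fabp3 are named beyond that rule, with their values seen. So are Cat, Crot and Acsl6, for the counts they belong to, and Nudt7 and Nudt19, for their compartment.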

Additional observations from a re-analysis of the deposited data

Results flagged for a closer look

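No gene of the list differed by at least 1.5-fold in opposite directions on the 2 days, but 5 genes of the marker and pathway lists did, also when readings at background were raised to it. The difference between the days was not tested, since each rests on single arrays. After Tbx6 relative to PBS, Ucp1 differed by -4.32 at day 7 and 2.65 at day 30. Adipoq, which encodes adiponectin, differed by -1.91 and 2.33, Car3, a carbonic anhydrase of fat and muscle, by -2.22 and 1.48, and Cidec, a lipid droplet protein, by -0.96 and 2.02. Ucp1 and Cidec were at background after PBS at day 30, so that their differences there were at least 2.29 and 1.83. The peroxin gene Pex13, a part of the import channel of peroxisomes, differed by 0.60 and -0.86.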

How the results depend on the processing

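Of the 15 genes called between days, 10 passed under all 8 alternative settings of the fit, and 5 were lost under at least 1. Acadvl, Hadhb, Etfdh and Hsd17b4 were lost after quantile normalisation and also without the expression filter (adjusted p of 0.0637, 0.0647, 0.0734 and 0.0746 by limma), and Acad10 with the floor at background. Acot13 passed with an intensity trend (adjusted p = 0.0284) and Acot1 with the floor (adjusted p = 0.0109). For injection, 0 listed genes passed under any setting, and 2 of all genes passed with the floor. Median changes with day moved to 0.25 (list) and 0.34 (mitochondrial) after quantile normalisation and to 0.52 (mitochondrial) with centred arrays. With each array left out in turn they ran from 0.28 to 0.47 (list), 0.55 to 0.56 (mitochondrial) and 0.32 to 0.63 (peroxisomal). Without the PBS array of day 7, a setting chosen after seeing the data, 19 listed genes were at least 1.5-fold apart between days. The list's median for injection at day 7 was 0.18 after quantile normalisation and 0.11 with the floor, which brought the peroxisomal one to -0.026. With a 2-fold rule, 1 gene was apart between injections at day 7, 0 at day 30, 0 on both days, and 5 between days in both pairs. The shares of all genes at 2-fold were not counted, so these counts show only how the rule moves the list's own. No listed gene was near the ceiling, so leaving such genes out gave no value. No paired analysis was possible because each group has 1 array and the labels give no replicate numbers. With the 2 arrays of a day as the only replication, an effect of injection that differs between days cannot be tested.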

Other observations

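Among the pathway genes outside the list, differences between injections were also counted. Of the 21 measured genes (19 tested) of the carnitine and mitochondrial list, 4 were at least 1.5-fold higher after Tbx6 at day 7 and 0 lower. Some genes of that list act outside mitochondria. At day 30, 2 were higher and 1 lower. Of the 4 at day 7, Acsl6 was at background on all arrays and was not tested, so its difference is not a measured one. The shares of all tested genes were 7.23% and 8.41% at day 7 and 7.13% and 6.06% at day 30, so the counts of day 30 are near them. Ivd, the dehydrogenase of leucine breakdown, was at 6.53 with PBS and 7.20 with Tbx6 on the arrays of day 7, against 9.09 and 10.71 on those of day 30. It was thus higher with Tbx6 by 0.67 and 1.62. Dbi differed by 0.84 at day 7 and 0.32 at day 30. Ech1, a dienoyl-CoA isomerase, differed by 0.75 and -0.17, and Acot9 by 0.35 and -0.65. These are differences between single arrays with no test. By limma over both days, 0 genes of this list passed for injection, and 1, Ivd, had an unadjusted p under 0.05 (0.00389, adjusted p = 1).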
